A study of Mus musculus with 6 samples.

Results

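The 10 core genes of mitochondrial fusion and fission were examined in mouse hearts under pressure overload. They are Opa1, Mfn1, Mfn2, Dnm1l, Fis1, Mff, Mief1, Mief2, Oma1 and Yme1l1, found by their Entrez Gene IDs among the 17570 IDs listed for each heart, and all 10 were present in every heart and passed the filter on low values. Transverse aortic constriction (TAC) narrows the aorta and loads the left ventricle. Hearts of WT C57Bl/6J mice (WT/TAC, n = 3) and of miR-27b knockout mice (KO/TAC, n = 3) were taken 8 weeks after TAC, which was performed at 10 to 12 weeks of age. The knockout carries a 10-base deletion in mature miR-27b-3p, made with a TALEN nuclease in C57BL/6 eggs, and is present in all cells of the animal, so it is not limited to cardiomyocytes. All 6 hearts had TAC and sham hearts were not analysed here, so the comparison is between genotypes under load and not of load itself.

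Mitochondria fuse and divide continuously. On the outer membrane the GTPases MFN1 and MFN2 tether and fuse neighbouring mitochondria, and on the inner membrane OPA1 completes fusion and holds the cristae in shape. Fission is carried out by the GTPase DRP1, the product of Dnm1l, which is drawn from the cytosol by the outer-membrane receptors MFF, MiD49 (from Mief2) and MiD51 (from Mief1), with FIS1 as a further adaptor. The inner-membrane proteases OMA1 and YME1L cleave OPA1, OMA1 mainly under stress, and so set the balance of its long and short forms. In adult cardiomyocytes mitochondria are densely packed between myofibrils, and mice lacking both mitofusins or DRP1 in the heart develop cardiomyopathy. RNA levels do not report OPA1 cleavage or the phosphorylation of DRP1.

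The sequence of the miRNA altered in the knockout and the stretches of the genes that can pair with its seed are shown because miRNAs are known to act on mRNAs mainly through such pairing. Mature miR-27b-3p, from RefSeq on GRCm38.p6 at chr13:63300760-63300780 (plus strand), is printed with its seed, bases 2 to 8, in capitals. The longest 3′ UTR of each gene (GENCODE M21, GRCm38) was searched for the complement of the seed, and the matches are printed in the sense of the mRNA with the match in capitals.
miR-27b-3p: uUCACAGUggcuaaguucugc
Opa1, full seed match followed by A: cgtcactgtgcACTGTGAAtggactttgta
Mief1, full seed match followed by A: tatcatttgtcACTGTGAAtttaggaaaag
Mff, match to bases 2 to 7 followed by A: tagaaaactgtCTGTGAAagaaaagtgtt
The Opa1 site lies at chr16:29654462-29654469, at base 2719 of a UTR of 3141 bases, the Mief1 site at chr15:80252156-80252163, at base 2021 of 3236, and the Mff site at chr1:82752061-82752067, at base 345 of 678, each in the annotated 3′ UTR. A match to the 7 seed bases was thus held by 2 of the 10 genes, and by 2137 of 12320 tested genes with a UTR (17.3%). A 6-base match (CTGTGA) was held by 5 of the 10 (Opa1, Mfn2, Mff, Mief1 and Yme1l1) against 48.7% of genes, and Mfn1, Dnm1l, Fis1, Mief2 and Oma1 had none in that UTR. A match is a description of letters and was not tested as a binding site.

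The values were FPKM, counts of fragments scaled by transcript length and library depth. Levels are set side by side between genes on that scale, which takes no account of GC content. Each library summed to 519562 to 553716 FPKM. Depth, estimated from the spacing of the lowest values, was 12.8 to 13.1 in KO/TAC and 14.8 to 15.9 in WT/TAC, in units of 1000000 fragments. It is a rough estimate in which 61.2% to 72.1% of these values lay within 0.2 of a whole fragment. The depth with the largest such share was taken for each library, so the share does not test it. The tissue is labelled heart, although the extraction note speaks of granulosa cells, and troponin T (Tnnt2) was at 5036 to 7329 FPKM in all 6. WT/TAC replicate 1 stood apart. Its ventricular myosin light chain Myl2 was at 81.0 FPKM against 9735 to 14329 elsewhere. Its Myl3 was at 188 FPKM against 7011 to 8807, and its Irx4 at 0.08 against 12.4 to 21.5. Its 6 ventricular markers summed to 5371 FPKM against 23395 to 28802 in the other 5 hearts, so the sum differs less than these 3 genes do. The 7 atrial markers of WT/TAC replicate 1 summed to 79892 FPKM against 95.9 to 8732, and its Myl7 was at 8140 FPKM. These sums include Nppa and do not measure atrial tissue alone. In WT/TAC replicate 2 they came to 6247 FPKM, with Nppa at 1.17% of all FPKM but Myl7 at 0.23 FPKM. Atrial Myl7 was also at 1135 FPKM in WT/TAC replicate 3 and 333 in KO/TAC replicate 2, which held adipocyte markers too (221 and 58.0 FPKM summed, at most 1.88 elsewhere). Fibroblast markers summed to 650, 621 and 424 FPKM in WT/TAC and 351, 288 and 314 in KO/TAC. Of the 7, 6 were lower in KO/TAC at an unadjusted p under 0.05 (limma) and a fold of at least 1.2, as were 6.14% of all tested genes. The level of miR-27b-3p itself was not analysed here.

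With the study's thresholds, an unadjusted p under 0.05 and a fold of at least 1.2, applied to the limma fit used here and not to the study's own test, 2 of the 10 genes passed, and both were higher in KO/TAC: Mfn1, which fuses the outer membrane, and Oma1, which cleaves OPA1. Among all 12520 genes tested 4.94% passed in that direction, and none of the 10 passed in the lower direction, where 6.14% of all genes did. "Rose" and "fell" below refer to these thresholds. None had an adjusted p under 0.05 in the limma fit, as 0.016% of all genes did (2 genes), and 2 of the 10 and 1402 of all genes had an unadjusted p under 0.05. A gene-by-gene 2-sample test on FPKM also gave none at an adjusted p under 0.05. The fitted change was positive for 7 and negative for 3 of the 10, with a median log2 fold change of 0.30 beside 0.00 for all genes tested. In 3 genes (Opa1, Mfn1 and Oma1) every KO/TAC heart lay above every WT/TAC heart, as in 8.46% of all genes, and in none did every KO/TAC heart lie below, as in 9.79%. Without WT/TAC replicate 1 the genes past the thresholds were 3, Dnm1l, Oma1 and Yme1l1, and the share of all tested genes that passed as higher was then 7.55% (939 of 12430). In RNA from heart tissue of mixed cells, fewer cells of a type and less RNA per cell cannot be told apart. The hearts also differed in atrial and ventricular markers, and how they were dissected was not given in the sources used here.

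**Figure D1:**
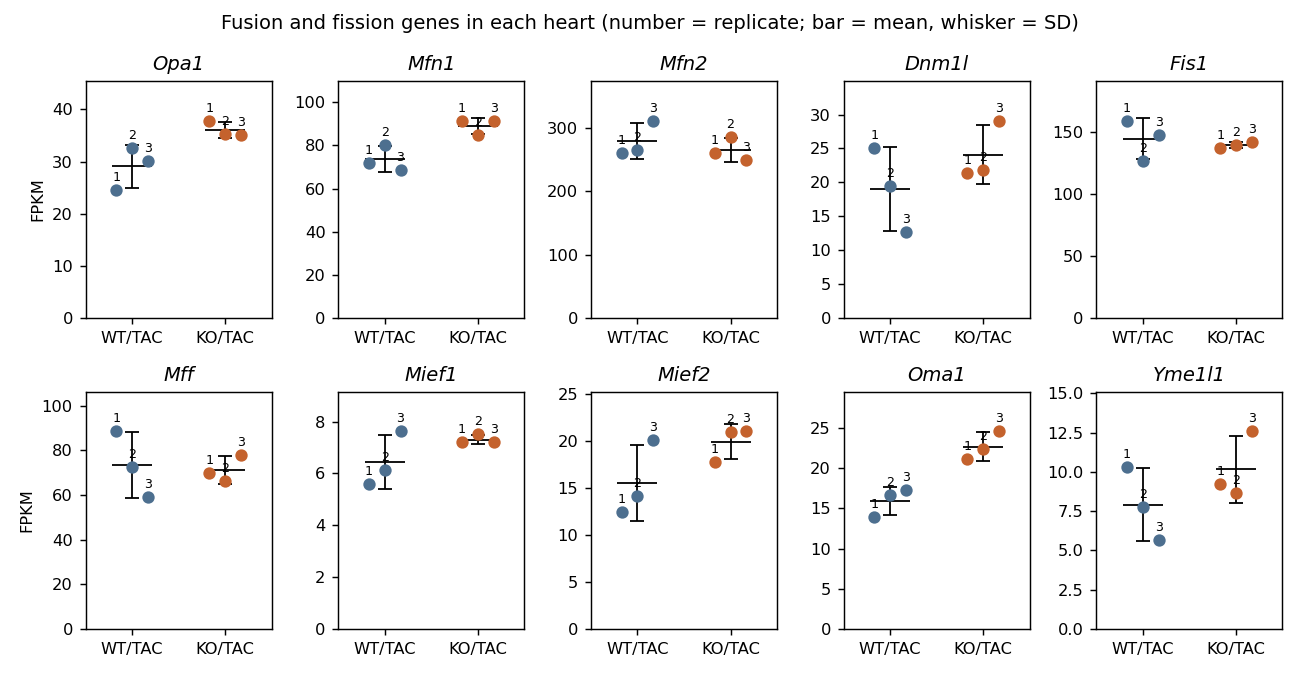
FPKM of each of the 10 genes (1 panel each, vertical axes from 0) in WT/TAC and KO/TAC; points are single hearts with their replicate number, and the bar with its line is the mean ± SD of 3 hearts. The groups do not overlap in Opa1, Mfn1 and Oma1, whereas in Dnm1l and Yme1l1 the WT/TAC hearts spread over 12.7 to 25.1 and 5.68 to 10.3 FPKM and overlap KO/TAC.

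Mfn2 was the most abundant of the 10, at a mean of 272 FPKM over the 6 hearts (249 to 311), followed by Fis1 at 142 (127 to 159), and neither range touched that of the next gene. Mfn1 at 81.4 and Mff at 72.4 FPKM came next, with overlapping ranges, although Mfn1 was above Mff in 5 of 6 hearts. Opa1 was at 32.6, Dnm1l at 21.6, Oma1 at 19.3 and Mief2 at 17.7 FPKM, and neighbours in that order overlapped. Yme1l1 at 9.04 and Mief1 at 6.88 FPKM were the lowest. Mief2 was above Yme1l1 in all 6 hearts and Yme1l1 above Mief1 in 5. Of the paired genes, Mfn2 was thus more abundant than Mfn1 and Mief2 than Mief1 in these hearts. Relative spread over the 6 hearts was smallest for Fis1 (coefficient of variation 7.7%) and Mfn2 (8.3%) and largest for Yme1l1 (25.8%) and Dnm1l (25.7%).

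Among the fusion GTPases, Mfn1 rose while Mfn2 did not pass. Mfn1 was at 72.0, 80.4 and 68.5 FPKM in WT/TAC replicates 1 to 3 and at 91.5, 84.8 and 91.1 in KO/TAC replicates 1 to 3. Its lowest KO/TAC heart was thus above its highest WT/TAC heart. The means were 73.6 ± 6.09 and 89.1 ± 3.74 FPKM (SD, n = 3 each), a log2 fold change of 0.28 with a standard error of 0.11 (limma, unadjusted p = 0.041, adjusted p = 0.42). The call was lost when WT/TAC replicate 1, WT/TAC replicate 3 or any KO/TAC heart was left out, and was kept without WT/TAC replicate 2 only. The log2 fold changes were 0.23 to 0.34 over the 6 omissions. Each such fit also has fewer hearts, so a lost call does not single out a heart. Opa1, the inner-membrane GTPase, was at 24.5, 32.6 and 30.1 FPKM in WT/TAC and at 37.9, 35.3 and 35.04 in KO/TAC. Its groups did not overlap, and the WT/TAC heart lowest in Opa1 was replicate 1, the one low in ventricular markers. The means were 29.1 ± 4.13 and 36.1 ± 1.58 FPKM (log2 fold change 0.31, standard error 0.13, 95% interval -0.0048 to 0.63, limma unadjusted p = 0.0526, adjusted p = 0.452), and without WT/TAC replicate 1 the log2 fold change was 0.20 (unadjusted p = 0.0945). Without WT/TAC replicate 2 it was 0.40 and passed (unadjusted p = 0.0275). Mfn2, the mitofusin that also links mitochondria to the endoplasmic reticulum, was at 260, 264 and 311 FPKM in WT/TAC and at 261, 285 and 249 in KO/TAC, with overlap and with its highest value in WT/TAC replicate 3. The log2 fold change was -0.07, with a 95% interval of -0.36 to 0.23. The geometric mean of the 3 fusion genes was 77.4, 88.7 and 86.5 FPKM in WT/TAC and 92.8 to 96.8 in KO/TAC.

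**Figure D2:**
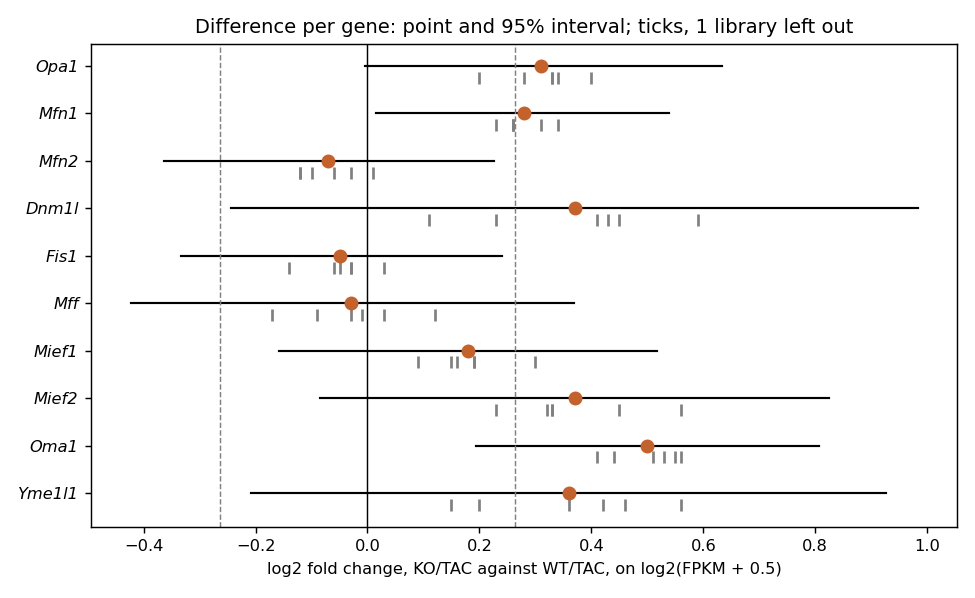
Log2 fold change, KO/TAC against WT/TAC, of the 10 genes from the fit across all tested genes on log2(FPKM + 0.5), with 95% intervals from 3 hearts per group and small ticks for the value with each heart left out. Oma1 (0.50) and Mfn1 (0.28) have intervals above 0, and those of the other 8 genes include 0.

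None of the genes of fission passed. Dnm1l, which encodes DRP1, was at 25.1, 19.4 and 12.7 FPKM in WT/TAC and at 21.4, 21.8 and 29.1 in KO/TAC. The WT/TAC hearts differed from each other more than the group means did (19.0 ± 6.21 and 24.1 ± 4.35 FPKM), and the log2 fold change was 0.37 with a 95% interval of -0.24 to 0.98. It was 0.59 without WT/TAC replicate 1 (limma, unadjusted p = 0.0359) and 0.11 without WT/TAC replicate 3, so these hearts decided the value. Mief2, which encodes the receptor MiD49, was at 12.4, 14.1 and 20.1 FPKM in WT/TAC and at 17.7, 20.9 and 21.02 in KO/TAC. WT/TAC replicate 3 lay among the KO/TAC hearts, and the log2 fold change of 0.37 (95% interval -0.09 to 0.82, unadjusted p = 0.0961) became 0.56 without it (unadjusted p = 0.00786) and 0.23 without WT/TAC replicate 1 (unadjusted p = 0.238). Mief1, which encodes MiD51 and holds a seed match, was at 5.60, 6.12 and 7.63 FPKM in WT/TAC and at 7.20, 7.52 and 7.21 in KO/TAC, again with WT/TAC replicate 3 the highest. Its log2 fold change was 0.18 (95% interval -0.16 to 0.52), and it was 0.09 without WT/TAC replicate 1 and 0.30 without WT/TAC replicate 3. Mff, the main receptor of DRP1, was at 88.6, 72.5 and 59.3 FPKM in WT/TAC and at 69.7, 66.1 and 78.0 in KO/TAC, and its highest and lowest values both fell in WT/TAC. Fis1 was at 159, 127 and 147 FPKM in WT/TAC and at 137, 139 and 142 in KO/TAC, the latter with an SD of 2.60 FPKM. The log2 fold changes of Mff and Fis1 were -0.03 and -0.05, with intervals of -0.42 to 0.37 and -0.33 to 0.24, and both turned positive without WT/TAC replicate 1 (0.12 and 0.03).

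Of the proteases that cleave OPA1, Oma1 rose. It was at 13.9, 16.6 and 17.2 FPKM in WT/TAC and at 21.1, 22.4 and 24.6 in KO/TAC. All KO/TAC hearts lay above all WT/TAC hearts, with means of 15.9 ± 1.77 and 22.7 ± 1.77 FPKM. The log2 fold change of 0.50 (standard error 0.13, 95% interval 0.19 to 0.81, limma unadjusted p = 0.00632, adjusted p = 0.283) was the largest of the 10, and it passed the thresholds with each heart left out in turn (0.41 to 0.56, the lowest without WT/TAC replicate 1). In the hearts with Myl7 under 1 FPKM, WT/TAC replicate 2 against KO/TAC replicates 1 and 3, it was 0.44, a value that rests on 1 WT/TAC heart. Yme1l1, the protease of the unstressed state, was at 10.3, 7.77 and 5.68 FPKM in WT/TAC and at 9.20, 8.68 and 12.6 in KO/TAC. The groups overlapped, and the log2 fold change of 0.36 (95% interval -0.21 to 0.93) was 0.56 without WT/TAC replicate 1 (unadjusted p = 0.0346) and 0.15 without WT/TAC replicate 3.

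Ratios of genes within a heart do not depend on how its library was scaled, and 5 were compared by an exact permutation test (two-sided, smallest possible p = 0.1 for 3 against 3). Mfn1 over Mfn2 was 0.28, 0.30 and 0.22 in WT/TAC and 0.35, 0.30 and 0.37 in KO/TAC, a log2 difference of 0.35 (exact p = 0.2, adjusted p = 0.5). Mief1 over Mief2 was 0.45, 0.43 and 0.38 in WT/TAC and 0.41, 0.36 and 0.34 in KO/TAC (exact p = 0.2, adjusted p = 0.5). Both pairs overlapped between the groups. Opa1 over Dnm1l, fusion of the inner membrane against fission, was 0.98, 1.68 and 2.38 in WT/TAC and 1.77, 1.62 and 1.2 in KO/TAC (exact p = 0.9). Oma1 over Yme1l1 (exact p = 0.8) and Opa1 over Yme1l1 (exact p = 0.8) also overlapped, and in all 3 of these ratios WT/TAC replicates 1 and 3 were the lowest and the highest of the 6 hearts.

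The hearts that were low and high in Dnm1l and Yme1l1 also differed in genes of low GC content. In the 3102 tested genes with the lowest transcript GC (32.6% to 45.7%), the median deviation from the mean of each gene was 0.15, 0.00 and -0.28 on the log2 scale in WT/TAC and 0.05, -0.06 and 0.13 in KO/TAC. In the 3096 with the highest GC (55.2% to 72.8%) it was 0.02, -0.03 and 0.14 in WT/TAC and -0.01, 0.00 and -0.11 in KO/TAC. Transcripts of Yme1l1 (38.0% GC), Dnm1l (40.9%) and Opa1 (43.5%) fall among the lowest, and Mief2 (57.6%) is the only one of the 10 among the highest. Dnm1l deviated by 0.25, -0.11 and -0.70 in WT/TAC and by 0.03, 0.06 and 0.47 in KO/TAC, and Yme1l1 by 0.22, -0.17 and -0.59 and by 0.06, -0.02 and 0.49. Both were lowest in WT/TAC replicate 3 and highest in KO/TAC replicate 3. Opa1, also low in GC, did not follow them. It deviated by -0.39, 0.01 and -0.10 in WT/TAC and by 0.23, 0.13 and 0.12 in KO/TAC. After genes were centred within bins of GC content, the log2 fold changes were 0.25 for Dnm1l, 0.21 for Yme1l1, 0.26 for Opa1 and 0.25 for Mfn1. None of these passed the thresholds, Mfn1 by its fold only (limma, unadjusted p = 0.0466), while Oma1 (0.49, unadjusted p = 0.011) and Mief2 (0.44, unadjusted p = 0.0388) passed. The part of GC content in these values was not tested beyond this.

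**Figure D3:**
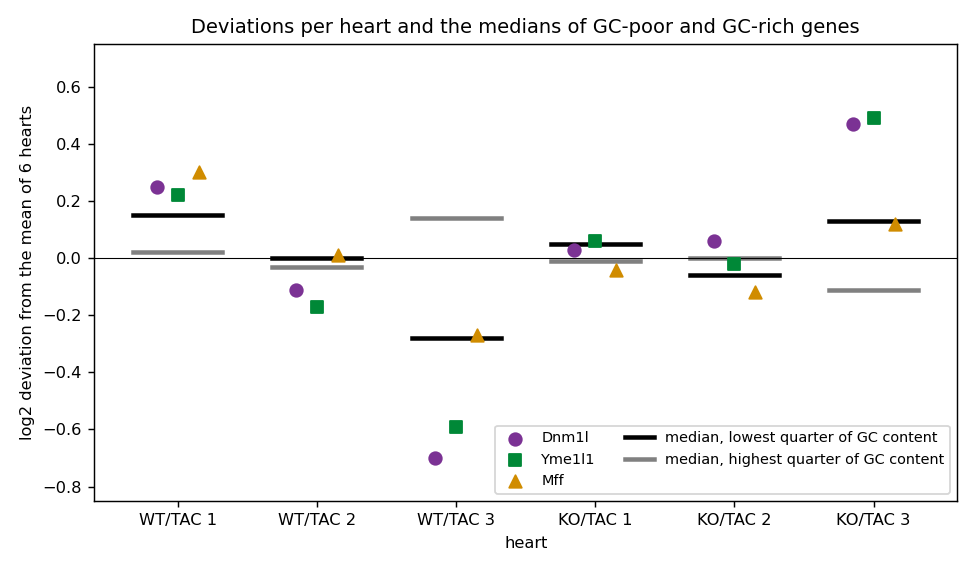
Deviation of each gene from its mean over the 6 hearts (log2 of FPKM + 0.5) by heart, for Dnm1l, Yme1l1 and Mff (points), beside the medians of the 3102 tested genes lowest (black bars) and 3096 highest (grey bars) in GC content. Mff (46.0% GC) is not among the lowest, and Opa1, which is, is not drawn. WT/TAC replicate 3 is low (-0.70 for Dnm1l, -0.28 for the genes lowest in GC) and KO/TAC replicate 3 is high (0.47 and 0.13).

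The levels were also set against 12 genes of general mitochondrial content, among them the outer-membrane channels Vdac1 to Vdac3, citrate synthase (Cs) and subunits of the respiratory chain. The geometric mean of these 12, called the content index, was 323, 361 and 334 FPKM in WT/TAC and 406, 405 and 444 in KO/TAC, without overlap. Its means of 339 ± 19.5 and 418 ± 22.3 FPKM differ by 1.23 times. The 12 genes were chosen with earlier results of these data known, so this difference is given as a description. Of the 12 genes, 4 rose and none fell, beside 4.94% of all tested genes that rose and 6.14% that fell. The 4 were Hspd1, the matrix chaperonin (120 ± 10.6 to 178 ± 33.8 FPKM), Sdha, the catalytic subunit of complex II (468 ± 57.7 to 638 ± 60.8), Uqcrc2, a core subunit of complex III (432 ± 80.1 to 583 ± 58.0), and Cycs, cytochrome c (290 ± 42.5 to 375 ± 33.2). Relative to the index, Opa1 was 7.61%, 9.04% and 9% in WT/TAC and 9.33%, 8.70% and 7.89% in KO/TAC, with overlap. Mfn1 relative to the index also overlapped. Oma1 was 4.31%, 4.61% and 5.16% in WT/TAC and 5.2%, 5.52% and 5.54% in KO/TAC, still without overlap but by a narrow margin. Mfn2 was 80.6%, 73.4% and 93.1% in WT/TAC and 64.3%, 70.4% and 56.1% in KO/TAC, without overlap and lower in KO/TAC. Fis1 (49.3%, 35.2% and 44.1% against 33.7%, 34.3% and 32%) and Mff (27.5%, 20.1% and 17.7% against 17.2%, 16.3% and 17.6%) were likewise lower without overlap, Mff by a narrow margin. The other 4 genes, Dnm1l, Mief1, Mief2 and Yme1l1, overlapped. A gene with unchanged FPKM also lies lower relative to an index that is 1.23 times higher in KO/TAC. The share of all tested genes without overlap relative to the index was not computed. Centring each library on these genes gave log2 fold changes of 0.20 for Oma1 (limma, unadjusted p = 0.176), -0.03 for Mfn1 and 0.01 for Opa1, and of -0.37 for Mfn2 (unadjusted p = 0.0411, adjusted p = 0.176), so that no gene rose and Mfn2 fell. The same centring moved the median of all tested genes to -0.308. Of all genes, 80 (0.639%) then passed as higher and 3246 (25.9%) as lower, against 618 and 769 without it.

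**Figure D4:**
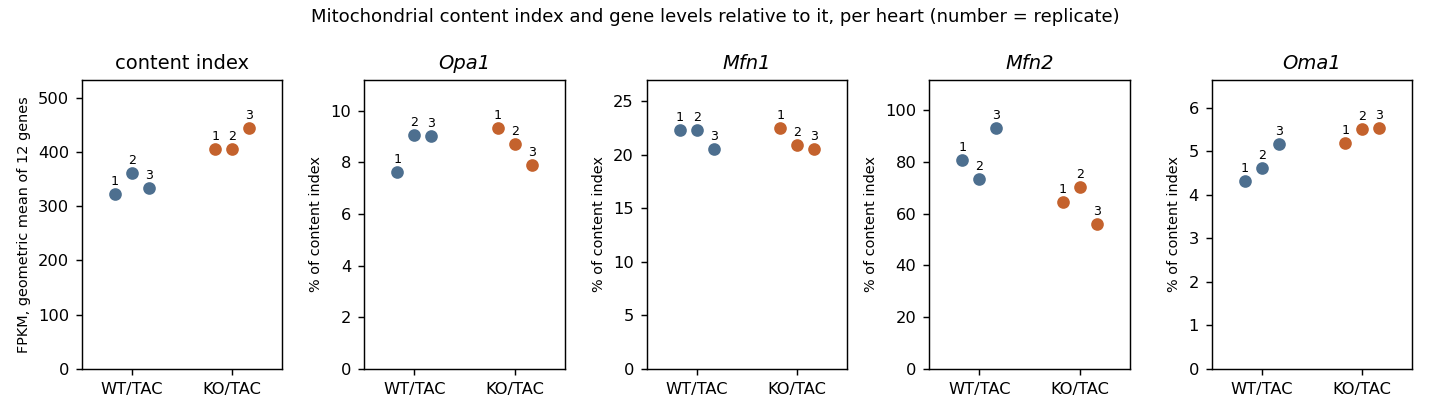
Content index (left, geometric mean FPKM of 12 mitochondrial genes) and the levels of Opa1, Mfn1, Mfn2 and Oma1 as a percentage of that index, with each heart as a point numbered by replicate and vertical axes from 0. The index is higher in all KO/TAC hearts (405 to 444 against 323 to 361), and Opa1 and Mfn1 overlap relative to it. Relative to the index Mfn2 is lower in KO/TAC, whereas its FPKM overlapped. The share of all tested genes without overlap relative to the index was not computed.

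The genes that work around the 10 are given by list, and their counts stand beside the 4.94% of all tested genes that passed as higher and the 6.14% that passed as lower. Of 11 inner-membrane scaffolds and proteases around OPA1, 1 rose, Clpp, the matrix peptidase, from 47.9 ± 7.04 to 60.9 ± 1.92 FPKM (limma, adjusted p = 0.399), and none fell (median log2 fold change 0.21). Of 12 genes of the MICOS complex and cristae, 2 rose and none fell (median 0.20), Apoo, the MICOS subunit MIC26, from 86.3 ± 16.2 to 121 ± 16.3 FPKM, and Micos10, its subunit MIC10, from 56.8 ± 8.44 to 73.3 ± 6.91. Of 14 regulators of fission tested, 2 rose and none fell (median 0.11). Mtfp1, an inner-membrane protein that promotes fission, went from 104 ± 26.1 to 142 ± 7.66 FPKM. Cox7a1, the muscle isoform of a subunit of complex IV and not itself a fission factor, was kept in the list as it stood and went from 1438 ± 230 to 2065 ± 140 FPKM. None of 8 regulators of outer-membrane fusion (median -0.03) and none of 4 genes of mitochondrial transport (median 0.08) passed. The smallest p in the former were those of Mtch2 (92.2 ± 8.91 and 111 ± 7.59 FPKM, log2 fold change 0.27) and Bax (32.5 ± 0.39 and 29.2 ± 1.51 FPKM, -0.15). Without WT/TAC replicate 1 the list around OPA1 had no gene past the thresholds and a median of -0.02, the MICOS list had 1 (median 0.13), and 1 outer-membrane fusion regulator fell (median 0.05). The fission list kept its count of 2 (median 0.04), and the median of the transport list was -0.11. In that fit 7.55% of all tested genes passed as higher and 7.49% as lower.

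Of 16 genes of mitophagy, the removal of mitochondria by autophagy, none rose and 2 fell (median 0.10), beside 6.14% of all tested genes that fell, and without WT/TAC replicate 1 again 2 fell (median 0.03). Gabarapl1, an autophagosome protein of the ATG8 family, was at 138, 101 and 108 FPKM in WT/TAC and at 82.1, 83.5 and 74.0 in KO/TAC (log2 fold change -0.52, limma unadjusted p = 0.0099, adjusted p = 0.299). Fkbp8, a mitophagy receptor of the outer membrane, fell from 114 ± 5.53 to 93.1 ± 3.11 FPKM. Both had groups without overlap. Of 13 genes of the PGC-1 programme of mitochondrial biogenesis, 1 rose and 1 fell (median 0.10), beside 4.94% and 6.14% of all tested genes. Tfam, the mitochondrial transcription factor, went from 16.0 ± 2.40 to 22.2 ± 4.86 FPKM, and Pprc1, the PGC-1-related coactivator, from 6.57 ± 0.65 to 4.86 ± 0.61. Ppargc1a, which encodes PGC-1α, was at 10.5, 8.94 and 9.97 FPKM in WT/TAC and at 11.1, 13.5 and 12.04 in KO/TAC, without overlap (log2 fold change 0.30, unadjusted p = 0.0526), whereas Ppargc1b overlapped (0.10, unadjusted p = 0.644).

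**Figure D5:**
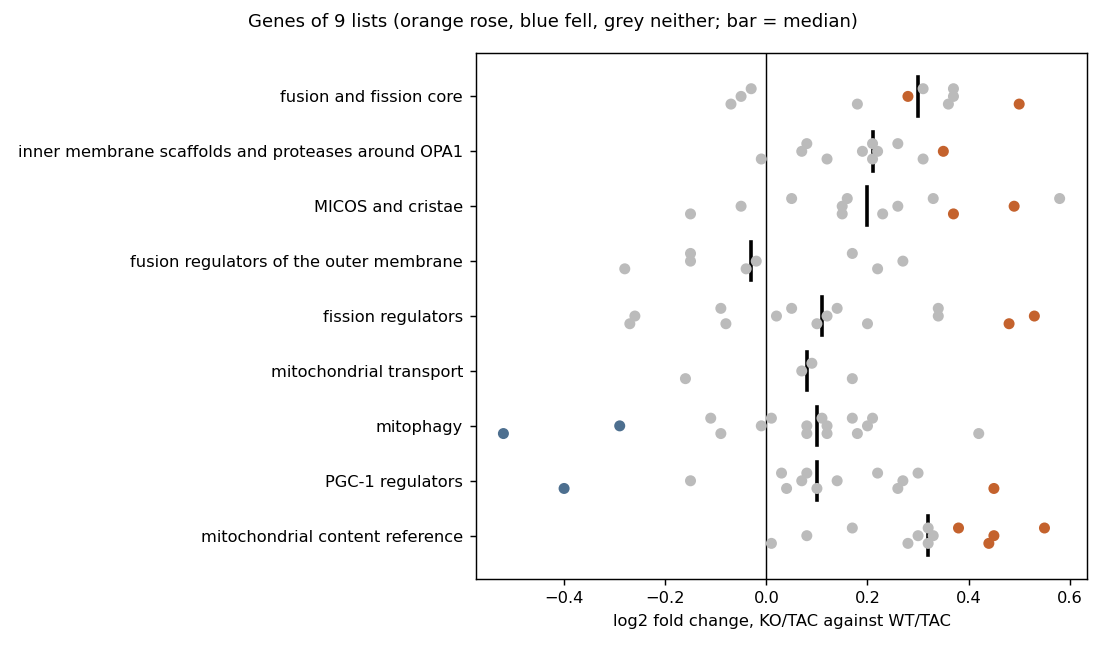
Log2 fold change, KO/TAC against WT/TAC, of each tested gene (point) of the 9 lists, with the vertical bar at the list median; orange genes rose and blue genes fell by the thresholds above. Medians run from -0.03 (outer-membrane fusion regulators) to 0.32 (content reference genes), with 0.30 for the 10 fusion and fission genes.

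Promoter stretches of Opa1, Oma1 and Mfn1, the genes whose groups did not overlap, are shown because the PGC-1 programme acts through factors with known motifs. RefSeq (GRCm38.p6) gave 15 promoters for the 10 genes, each from 250 bases before to 50 after a start, and both strands were searched. The motif of the nuclear respiratory factor NRF1, CGCNTGCG, was found in 1 promoter each of Opa1 and Oma1, and in 8.21% of all 32851 promoters. The motif of ETS factors such as GABPA, CCGGAAGT, was found in 4 of the 15 promoters, those of Mfn1, Fis1 and Mief1, and in 3.89% of all. The motif of the estrogen-related receptors, TCAAGGTCA, was found in none of the 15 and in 0.42% of all. The motifs below are in capitals.
Opa1, NRF1 motif, chr16:29579276-29579283: tggctccccgCGCATGCGcatgtcatcc
Oma1, NRF1 motif, chr4:103313824-103313831: gaaaggtgtgCGCCTGCGcggagccggc
Mfn1, ETS motif, chr3:32529438-32529445: atccgaagcgCCGGAAGTagccgcccct
These are letters in a window and no binding was measured. Of the 2 genes with a 7-base seed match, Opa1 had groups without overlap and Mief1 overlapped, while Mfn1 and Oma1 rose and hold no match of 6 bases in the longest UTR, the only one searched for it.

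The genes most alike to Mfn1 over the 6 hearts were Psmb2 (Pearson r = 0.994), Fam210a (0.992) and Iigp1 (0.991), and those most alike to Oma1 were Decr1 (0.999), Mccc1 (0.998) and Gpr22 (0.997), on the log2 scale. Decr1, the dienoyl-CoA reductase of fatty acid oxidation, was at 89.5, 118 and 121 FPKM in WT/TAC and at 166, 173 and 203 in KO/TAC. These are the highest of 12520 correlations over 6 shared libraries and are given as a description. Some annotated genes overlap members, of which the antisense gene Gm49521 covers 9757 bases of Dnm1l on the other strand. The library kit kept strand, and whether counting used it was not given in the sources used here.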

How the data were processed

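Heart RNA of 3 WT/TAC and 3 KO/TAC mice was sequenced by the authors with a stranded kit. The deposited values are FPKM per Entrez Gene ID, 1 file per heart. The submitters' processing notes name HISAT2 2.0.5, StringTie 1.3.3 and the builds hg38 and mm9, so the build is unsettled. Coordinates here come from GENCODE M21 and RefSeq, on GRCm38, and none from the deposited values. Fragment numbers per gene are unknown, and no counting interval was computed. That the hearts came from separate mice is taken from the labels' separate samples, and p-values measure only the spread between these.

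The 12520 of 17570 genes whose mean reached 0.5 FPKM were tested on log2(FPKM + 0.5) by limma 3.58.1 (lmFit, eBayes with a trend; R 4.3.3), two-sided, with Benjamini-Hochberg adjustment over all genes tested. A fold on this scale understates changes of low genes. The thresholds were an unadjusted p under 0.05 with a fitted fold of at least 1.2. Exact permutation tests used scipy 1.17.1 (Python 3.11.15, numpy 2.4.6, pandas 2.3.3), and plots matplotlib 3.10.9. The fit was tested on simulated data. GC content, available for 98.9% of tested genes, is that of annotated transcripts. Named genes are the 10 members, up to 4 genes past the thresholds per list by smallest p (the top 2 by p where none passed), and for members past the thresholds the 3 genes most alike. Ppargc1a and Ppargc1b were added after their values were seen. The members, the 9 pathway lists and the 11 marker lists were chosen with earlier results of these data known. Alternatives were pseudocounts of 0.1 and 1, no filter or a minimum of 5 FPKM, quantile normalization, median-ratio rescaling, content centring, no variance trend, a replicate block, log2 Myl7 as a covariate, a 2-sample test and each heart left out. GC-bin centring and the hearts with Myl7 under 1 FPKM were added after the data were seen. Protein features were not analysed here. The named genes of the transport list are not reported here.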

Additional observations from a re-analysis of the deposited data

How the results depend on the processing

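Over 19 alternatives, 161 of 190 fits of single genes kept direction and side of the thresholds, 11 lost a call with the direction kept, 9 gained one and 9 changed sign, 1 of which (Mfn1 with content centring) also lost its call. Oma1 passed under 18 of the 19, all but content centring, Mfn1 under 8 and Opa1 under 3, and the smallest adjusted p of any of the 10 genes was 0.176. The number of genes past the thresholds as higher (2) was 0 with content centring, where 1 (Mfn2) was lower, and 1 (Oma1) without a variance trend and with log2 Myl7 as a covariate, and it ran from 1 to 3 with a heart left out. The correlations of deviations between same-numbered hearts were -0.289, -0.565 and -0.346. These deviations were centred within each group of 3, so they cannot settle whether replicate numbers pair the hearts. With a replicate block the number of genes past the thresholds as higher was 1. Signs changed with content centring for Mfn1 (-0.03) and Mief1 (-0.12), and with log2 Myl7 for Fis1 (0.03). In hearts with Myl7 under 1 FPKM they changed for Fis1 (0.14) and Mff (0.02). With a heart left out, log2 fold changes ran from -0.12 to 0.01 for Mfn2, from -0.14 to 0.03 for Fis1, from -0.17 to 0.12 for Mff (0.03 without KO/TAC replicate 2), from 0.11 to 0.59 for Dnm1l, from 0.09 to 0.30 for Mief1, from 0.23 to 0.56 for Mief2 and from 0.15 to 0.56 for Yme1l1. Among ratios, with a heart left out, the log2 difference ran from -0.15 to 0.40 for Oma1 over Yme1l1, from -0.36 to 0.19 for Opa1 over Yme1l1 and from -0.39 to 0.23 for Opa1 over Dnm1l, with the low ends without WT/TAC replicate 1 and the high ends without WT/TAC replicate 3. With a 6-base match 5 genes held a miR-27 site in place of 2. Of all tested genes, 618 were higher and 769 lower. The replicate block left 355 higher, a minimum of 5 FPKM left 510 lower of only 7771 tested (6.56% against 6.14%), and leaving out a heart gave 260 to 939 higher and 366 to 1181 lower. The causes of the other changes were not tested. With 3 hearts per group, and WT/TAC replicate 1 low in ventricular markers, calls other than that of Oma1 among the 10 genes came or went as hearts were left out. Fits with a heart left out also have fewer hearts to measure the spread.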
